A study of Mus musculus with 6 samples.

Results

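The genes examined here encode the proteasome, the barrel-shaped protease that degrades ubiquitin-tagged proteins. They were taken by name: every row of the deposited gene table for a protein-coding gene whose symbol starts with Psma to Psmg followed by a digit, and which carries no other gene name. This gave 47 genes of the 20876 protein-coding symbols that have a row of their own. The RNA came from mouse embryonic fibroblasts (connective tissue cells grown from embryos) of wild-type genotype, immortalised with SV40, a virus whose large T antigen lets cells keep dividing. Both groups share this background: 3 samples were kept at 21% oxygen (normoxia) and 3 at 0.5% oxygen (hypoxia) for 16 h, and the series describes them as biological replicates. The study behind the series concerns mTORC1, lipid signalling and mitochondrial proteolysis, and the comparison here asks how low oxygen alters the transcripts of the cytosolic and nuclear protease.

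The proteasome consists of a 20S core of stacked alpha and beta rings, capped by a 19S regulator. In the core, 3 of the beta subunits cut proteins. In the regulator, a ring of ATPases unfolds the substrate, other base subunits bind ubiquitin, and the lid removes it. Under interferon, immunoproteasome versions take the place of the cutting subunits, and alternative activators can dock in place of the regulator. Transcription factors that include NFE2L1 raise many of these genes together when proteasome activity is short. Each subunit is present in a fixed number of copies in the assembled particle.

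Each gene has 1 FPKM in each condition (fragments scaled to transcript length and to library size), into which the authors combined their 3 replicates. They therefore carry no SD, and the value of single samples and the sequencing depth are unknown. The verbs rose and fell are kept for genes with q below 0.05 in the authors' deposited table. The Cuffdiff q-values, adjusted over all 14575 tested measurements, are the only measure of error. Levels are relative to all mRNA in a library, so fewer cells of a type and less RNA per cell cannot be told apart, and protein was not measured. The fibroblast markers Col1a1 (463 and 451 FPKM in normoxia and hypoxia) and Vim (883 and 2249 FPKM) were abundant, though 6 of 9 tested markers of this list fell and 1 rose, and all 4 endothelial markers stayed at or below 0.0906 FPKM. Of 8 leukocyte markers 7 stayed under 1 FPKM in both conditions, including Ptprc, which was listed at 0 in normoxia. Epithelial markers were present as well: the summed level of 5 such genes was 353 FPKM in normoxia and 462 FPKM in hypoxia, most of it Krt18, which rose from 313 to 443 FPKM. Krt8 fell from 28.3 to 10.1 FPKM and Cdh1 from 5.93 to 3.76 FPKM, Epcam stood at 5.97 and 5.22 FPKM, and the part of these genes in the results was not tested.

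Proteasome transcripts were mostly lower in hypoxia, but not evenly so. Of the 47 genes 45 were tested; 26 fell, 2 rose and 17 were not called. The share called in either direction, 62.2%, is close to the background: the authors' table calls 57.9% of all tested measurements. The direction is not: 57.8% of the proteasome genes fell against 29.0% of all tested measurements, and 4.44% rose against 28.9%. Most subunit genes are well expressed, so the 2270 tested measurements whose mean reached 50 FPKM give a second background: 65.1% of them were called, 23.6% fell and 41.5% rose. The proteasome values set beside it cover all 45 genes, also those below 50 FPKM, so the sets are not matched in level. The median log2 fold change, on the scale of log2(FPKM + 1), was -0.35 for the proteasome genes (quartiles -0.75 and -0.14), -0.01 for all tested measurements and 0.14 for those of at least 50 FPKM. In 36 of the 45 the hypoxia value was the lower, called or not, against 50.6% of all tested measurements and 40.0% of the well expressed ones. Falls of at least 2-fold were called for 7 genes (15.6%, against 9.87% of all tested measurements and 2.82% of the well expressed ones), another 7 fell by 1.5-fold to 2-fold and 12 by less. Among the 2-fold falls Psmb10, Psme3 and Psmg2 stood below 50 FPKM in both conditions, outside the second background. Summed over the tested genes, proteasome mRNA went from 5453 to 4258 FPKM, or from 0.996% to 0.666% of all FPKM in the table. The sum of all FPKM was itself 1.17-fold higher in hypoxia, so scaling both conditions to the same sum lowers every log2 ratio of FPKM by 0.22. On the log2(FPKM + 1) scale it takes the median of all tested measurements to -0.20 and that of the proteasome genes to -0.58. After this rescaling the log2 FPKM ratios of the 2 genes that rose shrink to 0.17 (Psmc6) and 0.02 (Psme4), and a new call cannot be made without values per sample.

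**Figure D1:**
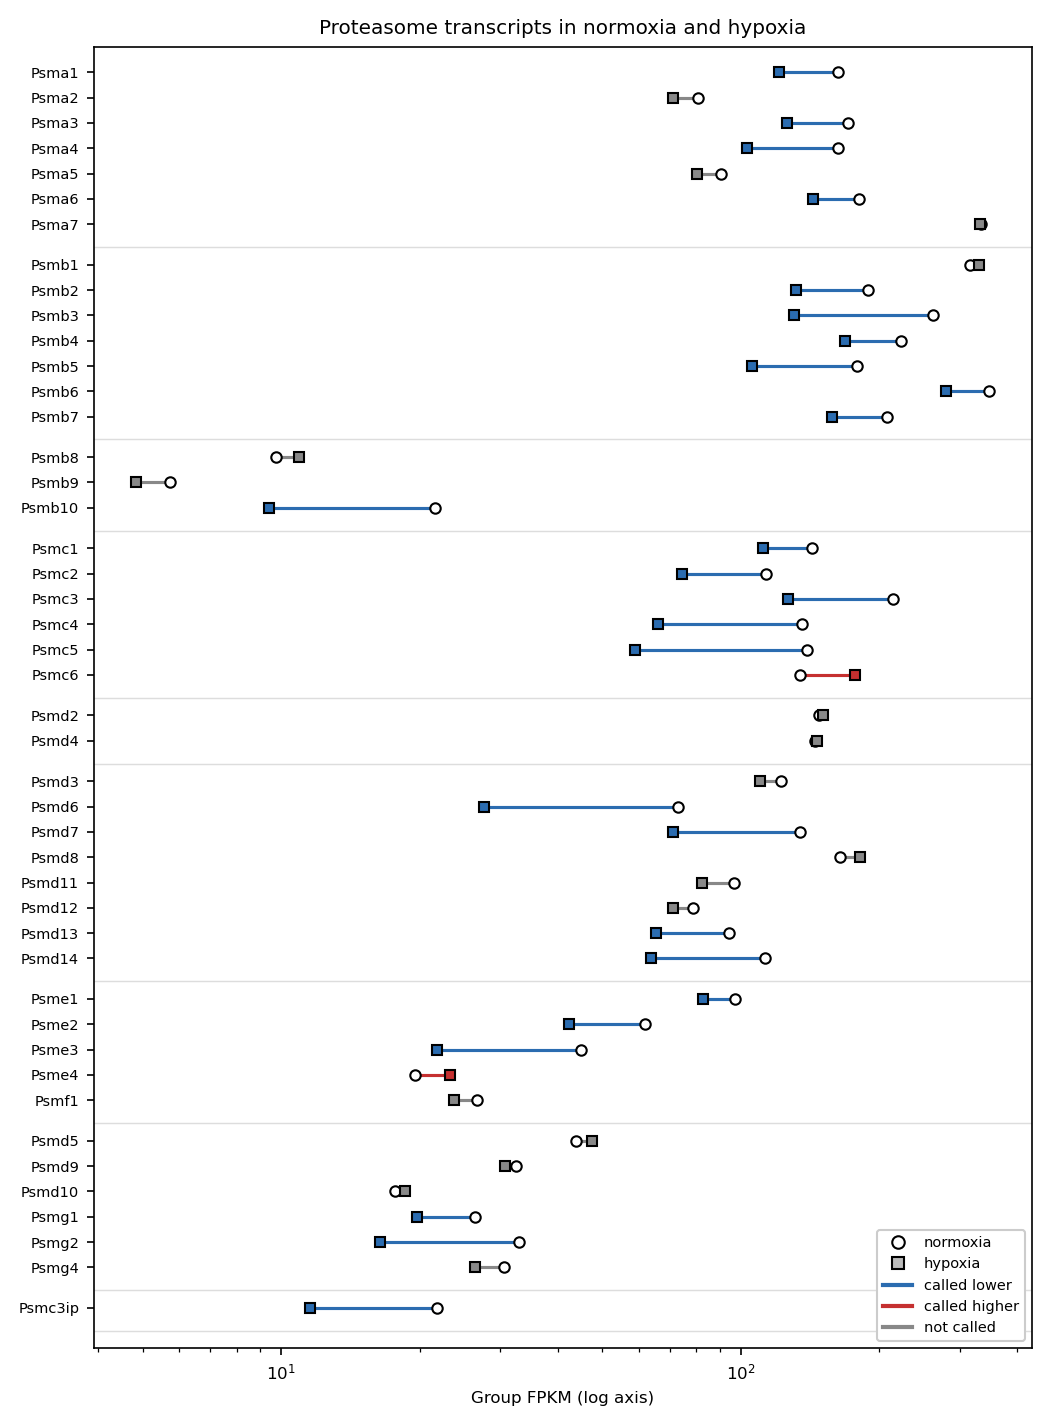
Group FPKM (log axis) of the 45 tested proteasome genes in normoxia (circles) and hypoxia (squares), in blocks from top to bottom: alpha ring, beta ring, immunoproteasome, ATPases, other base subunits, lid, activators and inhibitor, assembly chaperones, and Psmc3ip. Line colour gives the authors' call; most squares lie left of their circles, Psmd6 moves furthest (73.1 to 27.6 FPKM), the circles and squares of Psma7, Psmd2 and Psmd4 nearly coincide, and Psmc6 moves right.

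The regulatory ATPases had the lowest median of the groups. Their ring of 6 different subunits threads substrates into the core. Of the 6 genes 5 fell and 1 rose, where 29.0% of all tested measurements fell and 28.9% rose. The group median was -0.68. Psmc5 (chromosome 11, 106256154 to 106263120 on GRCm38) fell from 139 to 58.8 FPKM, 2.37-fold. Psmc4 fell from 136 to 66.1 FPKM, 2.06-fold. In normoxia these ATPase transcripts had stood within a narrow band together with Psmc1 and Psmc6. Psmc3 fell from 215 to 127 FPKM and Psmc2 from 114 to 74.4 FPKM. Psmc1 fell least, from 143 to 112 FPKM (1.28-fold). The q of Psmc2 to Psmc5 was 0.000139, the smallest the authors' table holds, which it shares among many genes and which therefore gives no order. Psmc6 (chromosome 14, 45329788 to 45349705) went the other way, from 135 to 177 FPKM (1.32-fold, q = 0.00232 in the authors' table). The most abundant ATPase transcript was thus Psmc3 in normoxia and Psmc6 in hypoxia. The ratio of the highest to the lowest of the 6 widened from 1.89 to 3.01.

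The lid, which carries the enzyme that cuts ubiquitin chains off the substrate, was split. In all, 4 of its 8 genes fell and the other 4 were not called, and the median was -0.37. Over all tested measurements 29.0% fell. Psmd6 (chromosome 14, 14112174 to 14120984), a structural lid subunit, fell from 73.1 to 27.6 FPKM. At 2.65-fold this was the largest fall of any proteasome gene tested. Psmd14 encodes the deubiquitinase of the lid, and Psmd7 its inactive partner in a dimer. Psmd7 fell from 135 to 71.2 FPKM (1.89-fold) and Psmd14 from 113 to 63.8 FPKM (1.77-fold). Psmd13, a further structural subunit, fell from 94.1 to 65.4 FPKM. The other 4 lid genes lay between 1.17-fold lower (Psmd11, 96.5 and 82.5 FPKM, q = 0.0677) and 1.11-fold higher (Psmd8, 165 and 182 FPKM, q = 0.174). Within the lid the ratio of highest to lowest transcript went from 2.25 to 6.59, the widest spread in hypoxia of any of the groups described here. The lowest lid transcript was Psmd6 in both conditions. The same ratio narrowed from 4.96 to 3.80 in activators and inhibitor and from 3.78 to 2.26 in the immunoproteasome group. It widened in each other group of subunits or chaperones. In the authors' table, neither of the non-ATPase base subunits with a row of their own was called. Psmd2, the large scaffold that receives ubiquitin shuttles, stood at 148 and 151 FPKM (q = 0.811). Psmd4, a ubiquitin receptor, stood at 145 and 146.5 FPKM (q = 0.894). The remaining large base subunit gene, Psmd1, shares its row with Armc9 and Gm21972. That joint measurement fell from 85.8 to 59.0 FPKM, and the part of Psmd1 in it is uncertain.

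**Figure D2:**
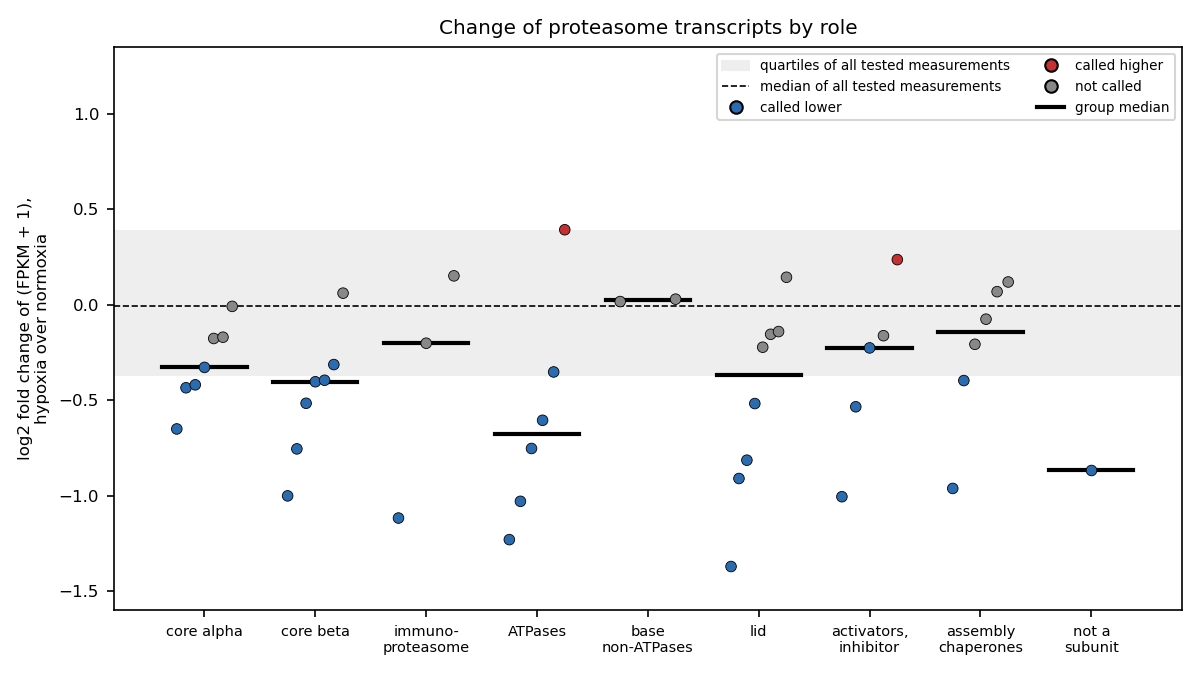
Each tested proteasome gene's log2 fold change, hypoxia over normoxia on the (FPKM + 1) scale (points, coloured by the authors' call), by role, with group medians (bars), the median of all tested measurements (dashed) and their quartiles (grey band). The ATPase median (-0.68) lies below the band, the core beta median (-0.40) just below it, and the base non-ATPase pair sits at the dashed line.

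In the 20S core, falls were called for genes of both the alpha ring, which gates the entrance, and the beta ring. Of the 7 tested alpha genes 4 fell and 3 were not called (median -0.33). Of the 7 standard beta genes 6 fell and 1 was not called (median -0.40), where 29.0% of all tested measurements fell. Psma4 fell most in the alpha ring, from 163 to 103 FPKM (1.58-fold). Psma3 fell from 171 to 126 FPKM, and Psma1 from 163 to 121 FPKM. Psma6 fell from 181 to 144 FPKM (1.26-fold, q = 0.00111 in the authors' table). Psma7, the most abundant alpha transcript, held at 334 and 332 FPKM and was not called (q = 0.939 in the authors' table). Psma2 and Psma5, the least abundant of the ring, had values 1.13-fold lower and were not called either. Psma8, the testis form of Psma7, was listed at 0 in both conditions and was not tested.

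The beta ring holds the cutting sites, and all 3 standard catalytic genes fell. Psmb5, the gene of the chymotrypsin-like subunit that proteasome inhibitor drugs block, fell from 179 to 106 FPKM (1.69-fold; chromosome 14, 54614119 to 54618022). Psmb7, the trypsin-like subunit gene, fell from 208 to 158 FPKM (1.32-fold). Psmb6, the caspase-like subunit gene and the most abundant proteasome transcript in normoxia, fell from 348 to 279 FPKM (1.24-fold). Among the beta subunits without a cutting site Psmb3 fell most, from 263 to 131 FPKM (2.01-fold). Psmb2 fell from 189 to 132 FPKM and Psmb4 from 223 to 169 FPKM. Psmb1 stood at 316 and 329 FPKM and was not called (q = 0.594 in the authors' table). The highest and lowest of the 7 beta transcripts differed 1.94-fold in normoxia and 3.11-fold in hypoxia. Changes were less scattered in the core than in the regulator: the SD of the log2 fold changes was 0.29 over 14 core genes and 0.52 over the 16 genes of ATPases, base and lid, a description for which no test was run.

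The immunoproteasome genes were expressed far below their standard counterparts in both conditions and did not move together. Psmb8, which replaces Psmb5, stood at 9.73 and 10.9 FPKM (q = 0.549 in the authors' table). Psmb9, which replaces Psmb6, stood at 5.71 and 4.84 FPKM (q = 0.530). Neither was called. Psmb10, which replaces Psmb7, fell from 21.6 to 9.42 FPKM (2.29-fold, q = 0.0135 in the authors' table; chromosome 8, 105935735 to 105938444). It was the most abundant of the 3 in normoxia, and Psmb8 was in hypoxia. At q below 0.01 the fall of Psmb10 would not be called. The locus listed for its row spans 31.8 kb, while the gene spans 2.71 kb. The loci of Psmb8 (18.6 against 3.73 kb) and Psmb9 (15.2 against 5.78 kb) are wider than the genes as well. Whether other transcripts of these loci enter the values is unknown. The standard transcript exceeded its immunoproteasome counterpart by 18.4-fold in normoxia and 9.70-fold in hypoxia for Psmb5 over Psmb8. For Psmb7 over Psmb10 the ratio went from 9.62 to 16.7. For Psmb6 over Psmb9 it was 60.8 and 57.8. Leukocytes carry immunoproteasomes constitutively, and of their markers Adgre1, Itgam, Cd3e and Ms4a1 were listed at 0 in both conditions, while Cd68 rose from 1.32 to 2.27 FPKM. The summed level of all 8 leukocyte markers was 1.36 FPKM in normoxia and 2.35 FPKM in hypoxia. Psmb9 and Psmb8 lie 9956 bases apart on chromosome 17, and Psmb9 shares exonic sequence with Tap1 on the opposite strand, so its low value is the more uncertain if strand was not used in counting. Psmb11, the thymus form, was listed at 0.0161 FPKM in normoxia and at 0 in hypoxia and was not tested.

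Of the activator genes whose products can replace the 19S regulator 3 fell and 1 rose, where 29.0% of all tested measurements fell and 28.9% rose. No rise was called in this group at q below 0.01. Psme1 and Psme2 encode the interferon-inducible activator that assists antigen processing, and lie 5911 bases apart on chromosome 14. Psme2 fell from 61.8 to 42.4 FPKM (1.46-fold) and Psme1 from 97.3 to 83.0 FPKM (1.17-fold, q = 0.0371 in the authors' table). A close copy of Psme2, Psme2b, shares a row with 9930111J21Rik1 (29.3 and 20.4 FPKM), so reads of Psme2 may have been divided between the rows. The nuclear activator gene Psme3 fell from 44.9 to 21.8 FPKM (2.06-fold; chromosome 11, 101316213 to 101323537). Psme4, a large single-chain nuclear activator linked to histone turnover and DNA repair, rose from 19.6 to 23.2 FPKM (1.19-fold, q = 0.0296 in the authors' table; chromosome 11, 30771726 to 30880361). Psmf1, which encodes an inhibitor of the core, stood at 26.7 and 23.8 FPKM and was not called (q = 0.184).

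Assembly chaperones help to build the particle and are not part of it when it is complete. Of the 6 tested, 2 fell and the other 4 were not called (median -0.14), where 29.0% of all tested measurements fell. Psmg1 and Psmg2 form a dimer that builds the alpha ring. Psmg2 fell from 32.9 to 16.4 FPKM (2.01-fold) and Psmg1 from 26.3 to 19.8 FPKM (1.33-fold). The chaperones of the ATPase ring, Psmd5, Psmd9 and Psmd10, lay between 1.06-fold lower (Psmd9, 32.5 and 30.8 FPKM) and 1.09-fold higher (Psmd5, 43.7 and 47.5 FPKM), none of them called in the authors' table. Psmd5 has a second row, listed at 0 in both conditions and not tested. Psmg4 stood at 30.6 and 26.3 FPKM (q = 0.108), and its partner Psmg3 shares a row with Gm26938 and Tmem184a, which fell from 32.6 to 19.9 FPKM. The naming rule also takes Psmc3ip, a factor of meiotic recombination that binds the protein of Psmc3 and is no part of the proteasome. It fell from 21.9 to 11.5 FPKM. Without it 25 of 44 genes fell and 2 rose. Exons of 7 tested members overlap those of another protein-coding gene (Psma4, Psmb7, Psmb9, Psmc3, Psmc3ip, Psmd13 and Psme1), all on the opposite strand, and the library kit kept strand, but no source used here gives the strand setting of the counting. Without these 7, 20 of 38 fell and 2 rose.

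Stretches upstream of 6 proteasome genes, picked by change or role and not to represent all members, are printed. They are Psmc6, the ATPase gene that rose, the catalytic gene Psmb5, Psmb10 and Psme3, which fell by more than 2-fold, and Psmd6 and Psmc5, the largest falls. Each comes from RefSeq (GRCm38.p6), runs 5′ to 3′ on the strand of the gene and stops before the annotated start. Capitals mark matches to any of 4 motifs searched on both strands: TGACNNNGC (core of the antioxidant response element, which NFE2L1 and NFE2L2 bind), ACGTG (core of the hypoxia response element), CCAAT (the NF-Y box) and the core of the interferon-stimulated response element (GAAA, any 2 bases, GAAA). A match is a description of the letters and not a bound site.
Psmc6 (chr14:45329574-45329787, plus strand): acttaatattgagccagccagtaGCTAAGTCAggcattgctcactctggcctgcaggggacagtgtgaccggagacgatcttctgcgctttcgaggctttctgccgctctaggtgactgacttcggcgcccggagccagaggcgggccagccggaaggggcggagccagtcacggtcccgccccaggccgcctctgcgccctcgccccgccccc
Psmb5 (chr14:54618023-54618245, minus strand): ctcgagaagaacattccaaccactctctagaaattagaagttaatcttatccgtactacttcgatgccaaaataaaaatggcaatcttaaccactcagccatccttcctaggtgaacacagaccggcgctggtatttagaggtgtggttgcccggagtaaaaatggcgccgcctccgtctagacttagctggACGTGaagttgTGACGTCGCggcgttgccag
Psmb10 (chr8:105938445-105938642, minus strand): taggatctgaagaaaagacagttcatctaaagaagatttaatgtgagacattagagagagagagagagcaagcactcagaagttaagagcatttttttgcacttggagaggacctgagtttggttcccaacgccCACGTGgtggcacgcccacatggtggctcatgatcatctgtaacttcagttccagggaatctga
Psme3 (chr11:101315963-101316212, plus strand): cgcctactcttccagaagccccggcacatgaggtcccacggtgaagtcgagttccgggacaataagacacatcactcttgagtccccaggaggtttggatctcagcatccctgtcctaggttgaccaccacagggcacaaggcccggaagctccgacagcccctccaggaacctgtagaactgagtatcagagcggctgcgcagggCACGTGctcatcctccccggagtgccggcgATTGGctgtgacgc
Psmd6 (chr14:14120985-14121195, minus strand): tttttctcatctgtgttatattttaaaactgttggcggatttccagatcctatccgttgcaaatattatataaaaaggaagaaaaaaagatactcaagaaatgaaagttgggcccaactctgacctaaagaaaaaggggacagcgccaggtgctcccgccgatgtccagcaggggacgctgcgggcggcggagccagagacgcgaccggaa
Psmc5 (chr11:106255935-106256153, plus strand): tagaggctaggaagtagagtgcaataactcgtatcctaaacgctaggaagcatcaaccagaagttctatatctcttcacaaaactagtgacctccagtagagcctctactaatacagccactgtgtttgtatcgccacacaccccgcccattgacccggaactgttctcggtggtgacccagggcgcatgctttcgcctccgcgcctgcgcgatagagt

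Motifs were counted from 250 bases before to 50 after each RefSeq start, for the 39 proteasome genes with an entry (42 promoters), beside all 32851 promoters of the table. The other 8 genes have no entry. The antioxidant element core was found in 14.3% of proteasome promoters and in 12.4% of all promoters. It lay in the promoters of both genes that rose, Psmc6 and Psme4, in 2 of 21 genes that fell (Psmb5 and Psmb6) and in 2 of 15 that were tested and not called (Psmd9 and Psmd12). In Psme4, whose promoter is not printed, the match begins 7 bases before the RefSeq start. With 2 genes that rose, this is a count of letters and nothing more. The hypoxia element core was held by 8 of 42 proteasome promoters and 19.6% of all. It lay in 6 of the 21 that fell, in 2 of the 15 not called and in neither that rose. Genes with it had a median log2 fold change of -0.58 (8 genes) and genes without it -0.22 (30 genes). The same medians were -0.11 (6 genes) and -0.38 for the antioxidant element core, -0.39 (14 genes) and -0.22 for the NF-Y box, and -0.21 (5 genes) and -0.35 for the interferon element core. None of these differences was tested. Part of the hypoxia element matches lie in the palindrome CACGTG, known as an E-box, which reads as ACGTG on both strands. That palindrome, counted after the matches were seen, was in the promoters of Psma4, Psmb10, Psme3 and Psmd9 (9.52% of proteasome promoters and 7.15% of all). All 4 are among the 8 genes counted above with the hypoxia element core. The median was -0.83 in these 4 genes and -0.27 in the rest, a difference that was not tested either. The NF-Y box was held by 35.7% of proteasome promoters against 37.4% of all. The interferon element core was held by 11.9% (5 of 42 promoters) against 3.44%, a difference that was not tested. The holders were Psmb3, Psmd4, Psmd9, Psme1 and Psmg4, and the immunoproteasome genes Psmb9 and Psmb10 held no match. Neither printed stretch of the genes that fell most, Psmd6 and Psmc5, holds any of the 4 motifs.

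**Figure D3:**
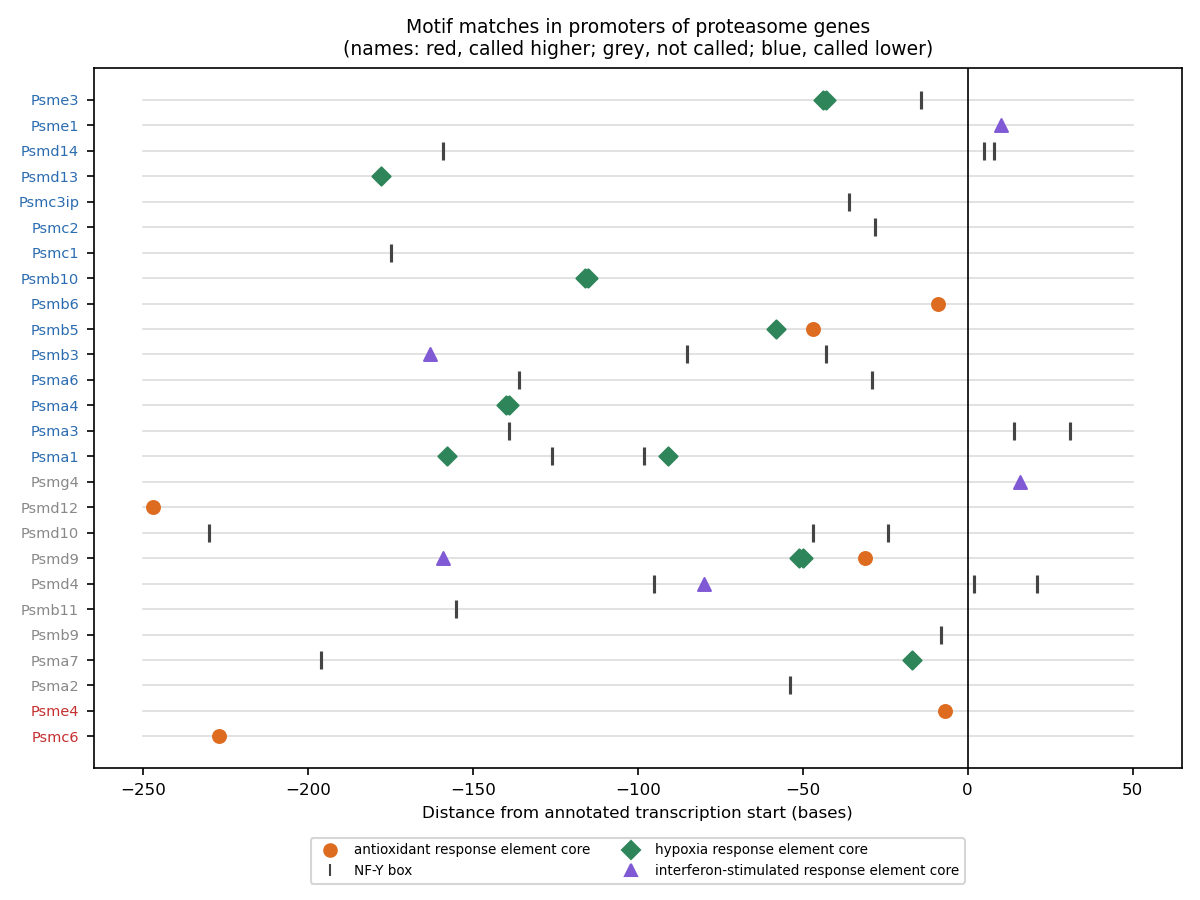
Positions of matches to 4 motifs in the promoters of proteasome genes with at least 1 match, as distance in bases from the RefSeq start, with gene names coloured by the authors' call. Overlapping pairs of hypoxia element matches mark CACGTG in Psme3, Psmb10, Psma4 and Psmd9, and the antioxidant element matches of Psmc6 and Psme4 are far apart, at -227 and -7.

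Other genes of the ubiquitin-proteasome pathway were divided in direction. The list held 50 symbols, and 41 of these had a tested row of their own. In this list 15 rose, 10 fell and the other 16 had no call, and the median log2 fold change was 0.04. Among all tested measurements 57.9% were called in either direction, 28.9% rose and 29.0% fell, so the whole table is divided as well. Among docked and assembly factors 5 of 12 rose and 2 fell. Adrm1, a ubiquitin receptor of the base and a true subunit outside the naming rule, fell from 69.6 to 37.0 FPKM (1.88-fold). Uchl5, the deubiquitinase that the product of Adrm1 recruits, rose from 25.1 to 32.2 FPKM (1.28-fold, q = 0.00708 in the authors' table). Ube3c, a ubiquitin ligase that works on the particle, fell from 18.0 to 13.2 FPKM. Txnl1, a thioredoxin-like protein of the regulator, rose from 56.3 to 108 FPKM (1.92-fold). Zfand2b rose 1.67-fold, and Akirin2, which takes part in nuclear import of proteasomes, rose from 38.8 to 58.3 FPKM. AI314180, the proteasome adaptor also known as Ecpas, rose 1.42-fold. The small lid subunit gene Sem1 (107 and 98.1 FPKM), the core maturation factor gene Pomp (107 and 92.0 FPKM) and the deubiquitinase gene Usp14 (52.1 and 48.7 FPKM) were not called in the authors' table.

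Upstream of the particle stand ubiquitin, its activating enzymes and the delivery factors. Of 4 tested ubiquitin and E1 genes 3 rose, where 28.9% of all tested measurements did. The polyubiquitin gene Ubb rose from 293 to 432 FPKM (1.48-fold) and the ubiquitin-ribosomal fusion gene Rps27a from 738 to 988 FPKM (1.34-fold). Uba6, an activating enzyme gene, rose 1.28-fold, and Uba1, the gene of the main activating enzyme, stood at 122 and 106 FPKM and was not called (q = 0.0976 in the authors' table). Among shuttles and the VCP machinery, which extracts and carries ubiquitin-tagged proteins, none of 8 with a row of their own rose, 4 fell and 4 were not called, where 29.0% of all tested measurements fell. Of the uncalled genes, 3 had the higher value in hypoxia (Rad23b, Ufd1 and Ubqln1), and the row that Ddi2 of this list shares with Rsc1a1 rose. No difference between these lists was tested. Vcp fell from 190 to 101 FPKM (1.89-fold). The ubiquilin shuttle genes Ubqln4 and Ubqln2 fell 1.32-fold and 1.19-fold, and Nsfl1c, the gene of a VCP cofactor, fell 1.28-fold.

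**Figure D4:**
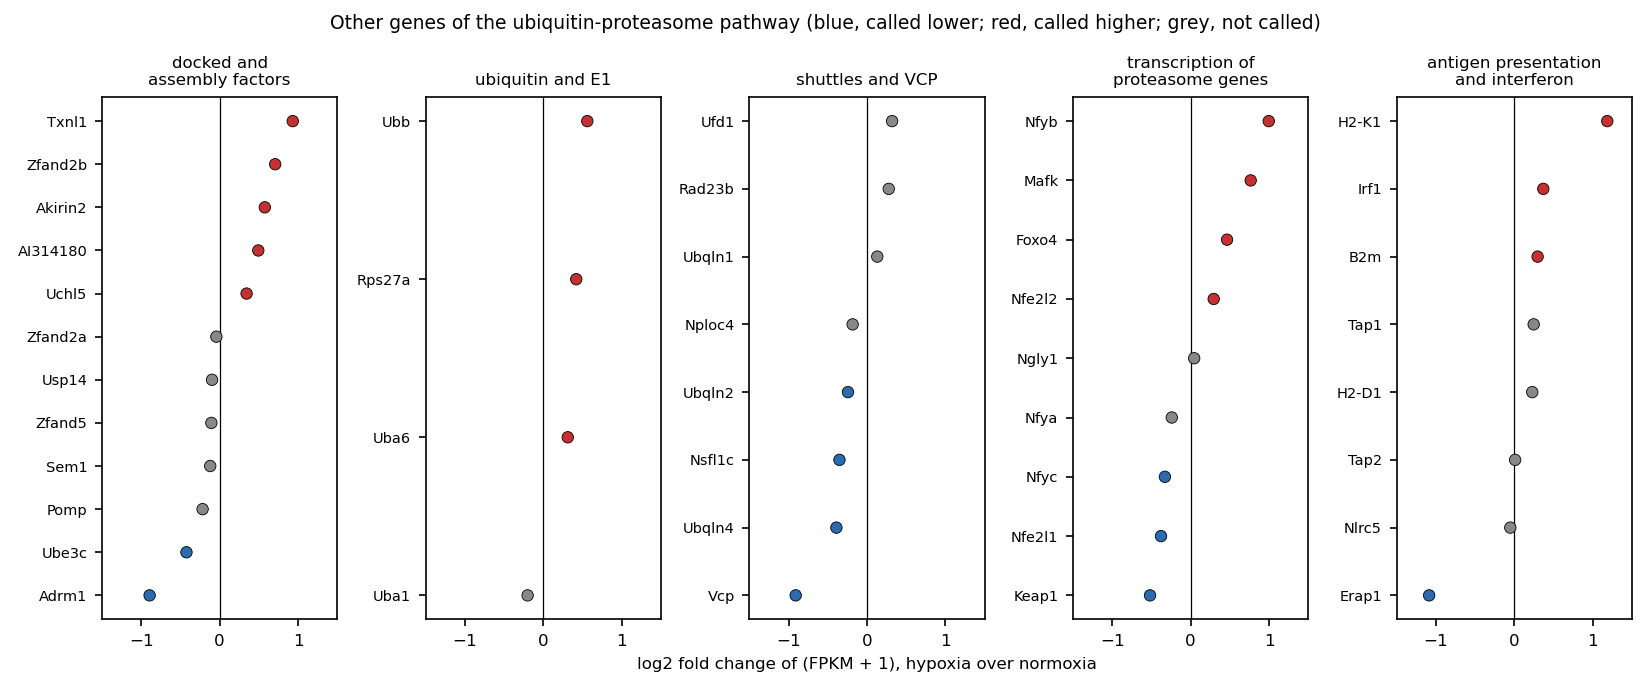
Log2 fold change, hypoxia over normoxia on the (FPKM + 1) scale, of 41 further genes of the pathway in 5 lists, coloured by the authors' call. Shuttles and Vcp have no red point, Nfe2l1 and Nfe2l2 lie on opposite sides of 0, and H2-K1 (187 to 427 FPKM) lies furthest to the right.

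Among regulators of proteasome transcription, rises were called for 4 of the 9 tested and falls for 3, where the whole table has 28.9% and 29.0%. Nfe2l1 encodes the factor best known for driving proteasome genes. It fell from 95.4 to 73.2 FPKM (q = 0.0228 in the authors' table). Nfe2l2, its relative that answers oxidative stress, rose from 50.2 to 61.8 FPKM (1.23-fold), and Keap1, whose product holds NFE2L2 down, fell from 24.6 to 16.9 FPKM (1.46-fold). Scaled to the same sum of FPKM in both conditions, the log2 ratio of Nfe2l2 shrinks to 0.07 and that of Nfe2l1 goes to -0.61. Of the factors that release NFE2L1 from the endoplasmic reticulum, Vcp fell (above), Ngly1 stood at 8.30 and 8.60 FPKM (q = 0.785), and the row that Ddi2 shares with Rsc1a1 rose 1.23-fold (q = 0.0475). Subunits of NF-Y differed: Nfyb rose 2.05-fold to 38.9 FPKM while Nfyc fell 1.26-fold. Mafk, the gene of a small partner of both NFE2L factors, rose 1.79-fold and Foxo4 1.41-fold.

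In antigen presentation, which uses proteasome products, rises were called for 3 of 8 tested genes and a fall for 1. The whole table has 28.9% and 29.0%. The class I heavy chain gene H2-K1 rose from 187 to 427 FPKM (2.28-fold) and B2m, its light chain gene, from 294 to 362 FPKM (1.23-fold). Irf1, a regulator of immunoproteasome genes, rose from 30.2 to 39.3 FPKM. The peptide trimming gene Erap1 fell from 5.62 to 2.12 FPKM (2.65-fold, q = 0.0287 in the authors' table). The peptide transporter genes Tap1 (12.0 and 14.5 FPKM, q = 0.0537) and Tap2 (13.6 and 13.7 FPKM, q = 0.940), which neighbour Psmb8 and Psmb9, were not called in the authors' table.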

How the data were processed

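RNA of 6 samples was sequenced from poly-A selected, stranded libraries, per the labels' protocols. The submitters' processing notes name GRCm38 and the tools Cuffdiff 2.2.1, Cufflinks, StringTie 1.3.4d and HISAT2 2.1.0. The authors deposited 1 table with an FPKM per gene and group, the log2 fold change, the test statistic (a score, not used), and a q-value beside its p-value (units per the file headers). No source used here states their scaling of libraries. Rows repeating a measurement were counted once (53207 rows, 51482 measurements). Without per-sample values no test between replicates was run, and the calls are the authors' q below 0.05. Medians of lists use log2(FPKM + 1), and folds of named genes are FPKM ratios. Coordinates are 1-based, from GENCODE M21 (GRCm38), and motifs were searched in RefSeq promoters. All members may be named, with values for the cutting beta subunits and called members, a fixed set of partner genes, and up to 4 called partners per list. Values of Ube3c, AI314180, Uba1, Nfyc and members outside this rule were added after seeing them. Some partner genes of the list are not reported here and enter no partner count. Members and lists were chosen with earlier results of these data known. Counting and scaling functions were tested on simulated data, with Python 3.11.15, pandas 2.3.3 and numpy 2.4.6.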

Additional observations from a re-analysis of the deposited data

How the results depend on the processing

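The table holds group values only, so leaving out replicates could not be run, and depth, which limits calls of low genes, is unknown. No paired analysis was possible because the columns carry no replicate numbers. The count of proteasome genes that fell was 24 at q below 0.01 (1 rose) and 14 with a change of at least 1.5-fold (0 rose), and 29 with shared rows included. The shares of all tested measurements at these stricter limits were not counted, so these counts cannot be set against a background. Summed FPKM rose 1.17-fold in hypoxia, so rescaling both groups to TPM shifts every log2 FPKM ratio by -0.22, and the median of all tested measurements to -0.20. This shift can turn no fall, and both rises stayed above 0. Small rises of partner genes shrank too, to 0.07 (Nfe2l2 and B2m), 0.13 (Uchl5), 0.14 (Uba6) and 0.16 (Irf1). No called member or partner gene changed direction. The medians became -0.58 for all members, -0.55 (core alpha), -0.63 (core beta), -0.42 (immunoproteasome), -0.91 (ATPases), -0.60 (lid), -0.45 (activators and inhibitor) and -0.36 (assembly chaperones), while that of the base non-ATPases turned from 0.02 to -0.20. Uncalled values changed direction: under TPM, Psmb1 (-0.16), Psmb8 (-0.059), Psmd2 (-0.20), Psmd4 (-0.21), Psmd5 (-0.10), Psmd8 (-0.080), Psmd10 (-0.15), Ngly1 (-0.17), Tap2 (-0.21) and Ubqln1 (-0.090), and by the median of ratios Psma7 (0.013). With shared rows the median of activators and inhibitor was -0.37. Without members whose exons overlap another gene, an alternative chosen after seeing the data as was leaving out Psmc3ip, medians were -0.48 (immunoproteasome), -0.22 (lid) and -0.35 (activators and inhibitor), from fewer genes. Among partner genes 6 rose and 3 fell by at least 1.5-fold, also without a background share at this limit. Of 214 further counts for groups and lists, 20 moved by more than 1.5 times, 13 of them under the 1.5-fold limit.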
